A study of Saccharomyces cerevisiae with 15 samples.

Results

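Transcripts of 52 Saccharomyces cerevisiae genes of amino acid synthesis were followed over 15 arrays of a study of chimeric repressors built on Pdr1. The genes were taken from a list for 8 pathways, those that make histidine (6 genes), the branched chain amino acids (10), lysine (7, of which 6 encode enzymes and LYS14 an activator), aromatic amino acids (11), threonine (5), serine (4), glutamine and its relatives (5) and proline (3), together with the regulator GCN4. Genes of arginine and sulfur amino acid synthesis were not in the list. All 52 had 1 probe set that is annotated to a single gene, out of 5656 such genes on the array, and that probe set stands for the gene throughout.

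The arrays were Affymetrix YG-S98 GeneChips, with 1 array for each culture and 5 groups of 3 cultures that the labels call biological replicates. Yeast of the Pdr1-Cyc8 fusion Dpdr1 group lacked their own PDR1 gene and made a Pdr1-Cyc8 fusion protein. The Pdr1-Cyc8 fusion and Pdr1-Sin3 fusion groups made a fusion and are not labelled as carrying the deletion, the Dpdr1 group carried the deletion without a fusion, and the Empty vector group held a vector with no fusion. All were in logarithmic growth at 30 degrees centigrade in synthetic dextrose medium. Pdr1 is an activator of pleiotropic drug resistance genes, and Cyc8 and Sin3 belong to corepressor complexes. The sources used here give neither the strain background and its auxotrophies nor the amino acid supplements, the promoter or the plasmid, nor do they say which parts of each protein the fusions hold.

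In yeast, most enzymes of amino acid synthesis answer to general amino acid control, in which starvation for any of several amino acids leads to translation of the GCN4 mRNA, and the Gcn4 protein then activates the genes. Gcn4 is set mainly by translation and protein turnover, so its mRNA level is not a measure of its activity. Single pathways carry a further layer of control: Lys14 activates lysine genes when a pathway intermediate accumulates, Leu3 does so for leucine genes, and lysine and other end products inhibit the first enzymes of their own pathways.

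Levels are given as log2(intensity + 16) after quantile normalisation, and differences are on that scale, with the first-named group minus the other. A gene was called when the adjusted p of limma, fitted to all 15 arrays and adjusted over 9275 probe sets, was under 0.05. An array reads the average of a culture, so fewer cells with a transcript and less of it per cell cannot be told apart. With 3 arrays a group, it is the array number that bounds the precision.

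The constructs matched their labels: PDR1 averaged 6.94 ± 0.24 in Pdr1-Cyc8 fusion Dpdr1 and 4.70 ± 0.40 in Dpdr1, against 9.08 ± 0.16 with the Empty vector (SD, n = 3 each), CYC8 was raised in both groups with its fusion and SIN3 in the group with its own. PDR1 averaged 9.07 ± 0.12 in Pdr1-Cyc8 fusion and 8.67 ± 0.23 in Pdr1-Sin3 fusion, near the Empty vector. Median deposited intensities were 115.7 to 141.0 per array, and the lowest value of any of the 52 genes on any array was 25.1. A difference between spike-in controls, BioC minus BioB, was 1.02 to 1.32 on the 9 arrays of Pdr1-Cyc8 fusion, Dpdr1 and Empty vector and -0.64 to -0.20 on the 6 arrays of Pdr1-Cyc8 fusion Dpdr1 and Pdr1-Sin3 fusion. No group spans both sets, so in a comparison across them the group and the set cannot be told apart. Cultures of 1 group also differed. A list of 20 ribosome assembly genes averaged -1.57, -1.80 and -0.17 relative to the Empty vector mean on Dpdr1 replicates 1, 2 and 3, and -1.36, -0.54 and -0.33 on those of Pdr1-Cyc8 fusion. It lay within -0.14 to 0.00 in Pdr1-Cyc8 fusion Dpdr1, -0.76 to -0.67 in Pdr1-Sin3 fusion and -0.29 to 0.16 with the Empty vector.

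In Pdr1-Cyc8 fusion, Dpdr1 and Empty vector, the mean of the lysine genes had a wider range among the 3 cultures of a group than that of any other of the 8 pathways. All 7 stood above the midpoint of their own range on Pdr1-Cyc8 fusion replicates 1 and 2, Dpdr1 replicates 1 and 2 and Empty vector replicate 3, and on the other 10 arrays at most 2 of the 7 did. LYS20 encodes a homocitrate synthase, the first and feedback-inhibited enzyme of the pathway. Its levels were 10.97, 11.15 and 11.00 in Pdr1-Cyc8 fusion Dpdr1, 14.12, 13.69 and 11.27 in Pdr1-Cyc8 fusion, 11.42, 11.28 and 11.50 in Pdr1-Sin3 fusion, 14.28, 14.21 and 10.80 in Dpdr1 and 10.81, 11.69 and 14.16 with the Empty vector. As deposited, the Empty vector intensities of LYS20 were 1772.0, 3388.7 and 16118.7, and those in Dpdr1 were 20528.4, 15651.9 and 1833.2. The 2 high cultures of Dpdr1 lie close to the single high culture of the Empty vector, and these groups overlap.

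LYS9 and LYS1 encode the saccharopine-forming and saccharopine-splitting enzymes that finish the pathway. LYS9 read 8.77, 8.63 and 8.88 in Pdr1-Cyc8 fusion Dpdr1, 11.69, 10.86 and 8.92 in Pdr1-Cyc8 fusion, 8.52, 8.22 and 8.17 in Pdr1-Sin3 fusion, 12.17, 12.16 and 8.03 in Dpdr1 and 8.07, 8.35 and 11.93 with the Empty vector. By its SD within the group, LYS9 ranked 2 of 9275 probe sets among the Empty vector cultures (SD 2.15) and 5 among those of Dpdr1 (SD 2.39), while in Pdr1-Cyc8 fusion Dpdr1 its SD was 0.12 and its rank 7734. LYS1 ranked 7 and LYS20 ranked 10 among the Empty vector cultures. The same arrays were high for LYS4, which encodes homoaconitase, for LYS12, which encodes homoisocitrate dehydrogenase, for LYS21, a second homocitrate synthase, and for LYS14, the pathway's activator. LYS14 moved least, with levels of 7.01, 7.31 and 6.34 in Dpdr1 and 6.32, 5.93 and 6.65 with the Empty vector. LYS2, the aminoadipate reductase in the middle of the pathway, is outside the 52 genes and read 11.52, 12.23 and 9.79 in Dpdr1 and 9.60, 9.71 and 12.18 with the Empty vector.

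**Figure D1:**
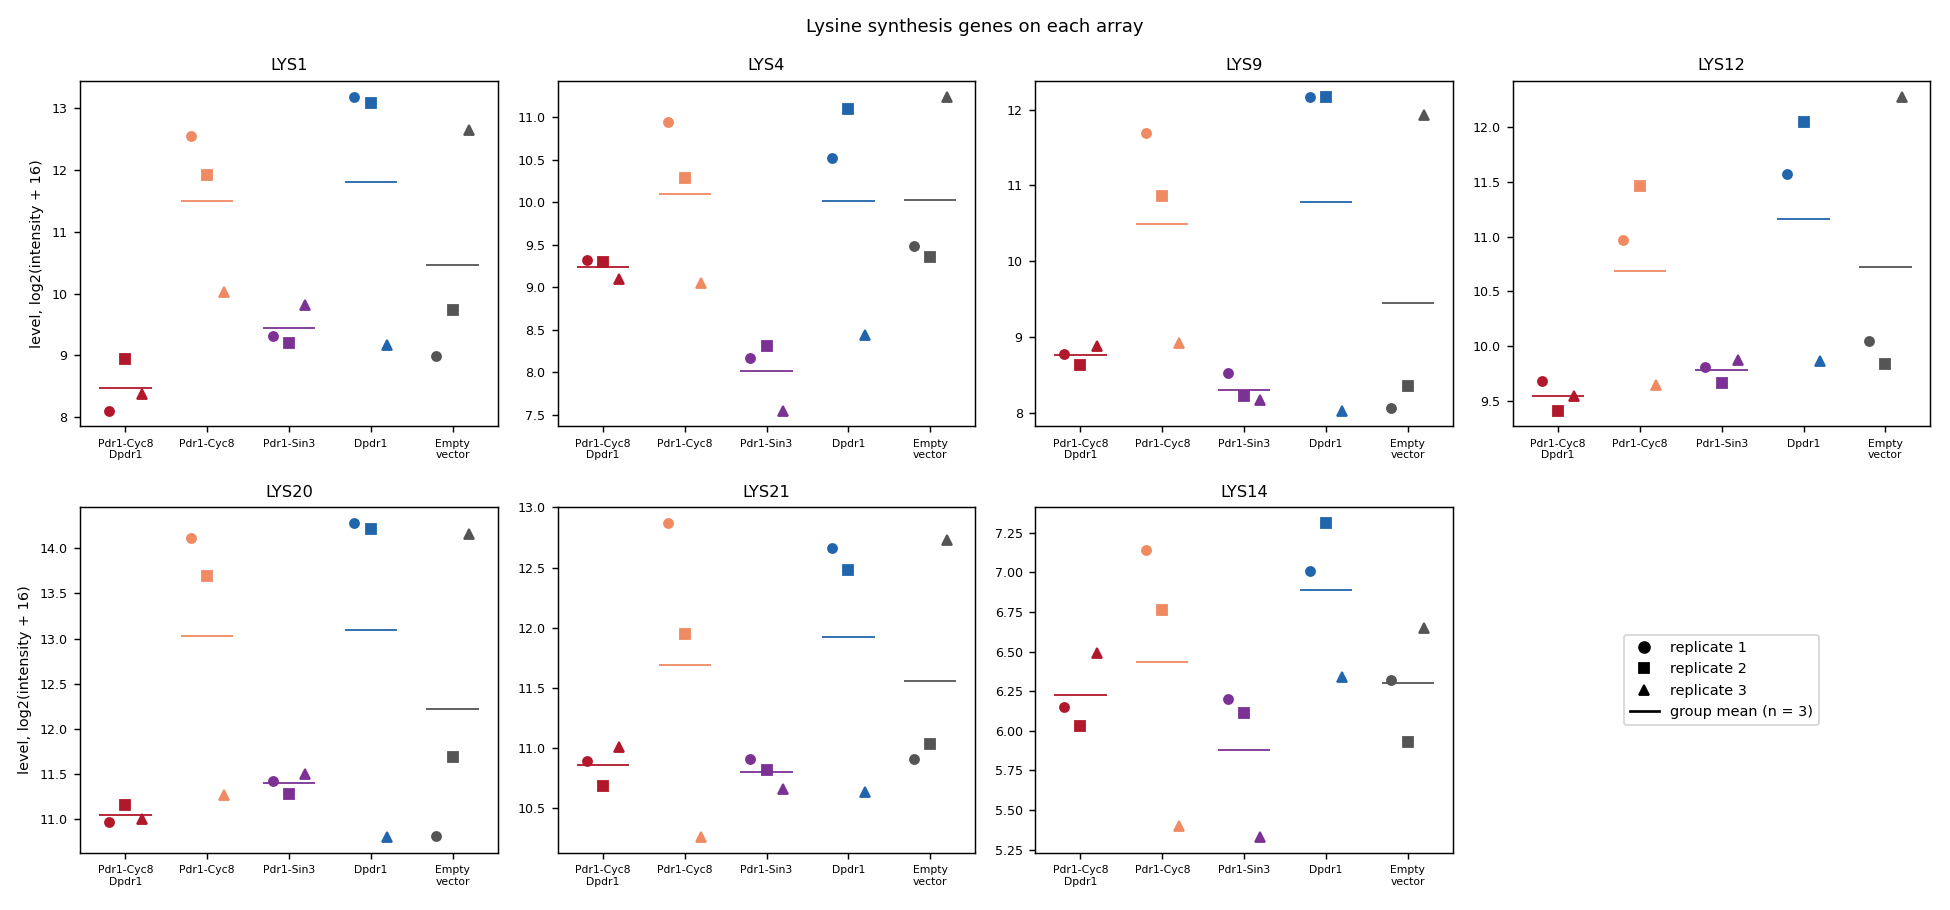
Level (log2(intensity + 16), vertical axis) of each of the 7 lysine genes on the 15 arrays, by group along the horizontal axis; symbols mark replicate number and lines the group mean. In each panel the 5 arrays Pdr1-Cyc8 fusion 1 and 2, Dpdr1 1 and 2 and Empty vector 3 lie above the other arrays of their groups, and the arrays of Pdr1-Cyc8 fusion Dpdr1 and Pdr1-Sin3 fusion lie closer together, apart from LYS4 and LYS14, where Pdr1-Sin3 fusion replicate 3 is low.

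Averaged over the 7 genes, the lysine list, LYS14 included, stood at -0.98, -0.94 and -0.91 in Pdr1-Cyc8 fusion Dpdr1, at 1.36, 0.88 and -0.88 in Pdr1-Cyc8 fusion, at -0.91, -1.02 and -1.12 in Pdr1-Sin3 fusion, at 1.52, 1.66 and -1.07 in Dpdr1 and at -0.87, -0.69 and 1.56 with the Empty vector, all relative to the Empty vector mean. All 6 arrays of the second spike-in set were low, and 5 of the 9 arrays of the first set were high. Ribosome assembly genes were at their lowest on 3 of the high arrays, Dpdr1 1 and 2 and Pdr1-Cyc8 fusion 1. On Pdr1-Cyc8 fusion 2, also high, they stood at -0.54, against -0.33 on the low replicate 3. On Empty vector 3 they stood at -0.29, against 0.16 and 0.13 on Empty vector 1 and 2. In Pdr1-Sin3 fusion, where lysine genes were low, they stood at -0.76 to -0.67. The part of ribosome assembly genes in the lysine levels was not tested. LYS20 and LYS21 are close paralogues, as are LEU4 and LEU9, SER3 and SER33, ASN1 and ASN2, ARO3 and ARO4, and BAT1 and BAT2, and cross-hybridisation between them was not tested. A probe set annotated to both LYS20 and LYS21 showed the same arrays high, at 14.01, 14.23 and 11.71 in Dpdr1 and 11.86, 12.36 and 14.21 with the Empty vector.

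The histidine genes were the next most variable in Pdr1-Cyc8 fusion and Dpdr1. In Pdr1-Cyc8 fusion Dpdr1 and Pdr1-Sin3 fusion the lysine mean had a range of only 0.07 and 0.21, and the widest were serine at 0.32 in Pdr1-Cyc8 fusion Dpdr1 and proline at 0.61 in Pdr1-Sin3 fusion. The mean of the 6 histidine genes was -0.45, -0.51 and -0.26 in Pdr1-Cyc8 fusion Dpdr1, 1.03, 0.47 and -0.05 in Pdr1-Cyc8 fusion, -0.26, -0.31 and -0.34 in Pdr1-Sin3 fusion, 0.50, 1.34 and 0.02 in Dpdr1 and 0.04, -0.32 and 0.28 with the Empty vector. The histidine mean was thus highest on replicates 1 and 2 of Pdr1-Cyc8 fusion and Dpdr1, as the lysine mean was. Empty vector replicate 3 was far less apart for histidine than for lysine. On Dpdr1 replicate 3, 4 of the 6 histidine genes were lowest, and all 7 lysine genes, while HIS6 was highest there. The range of the 3 Dpdr1 arrays was 2.73 for lysine, 1.31 for histidine, 0.73 for aromatic and 0.69 for threonine genes, but 0.12 for the branched chain and 0.12 for the glutamine genes. The serine and proline means were lowest on replicate 1 in Dpdr1, at -0.63 and -0.75, but their genes went both ways: 2 of 4 serine and 2 of 3 proline genes were lowest there, while SER3 and PRO2 were lowest on replicate 3.

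**Figure D2:**
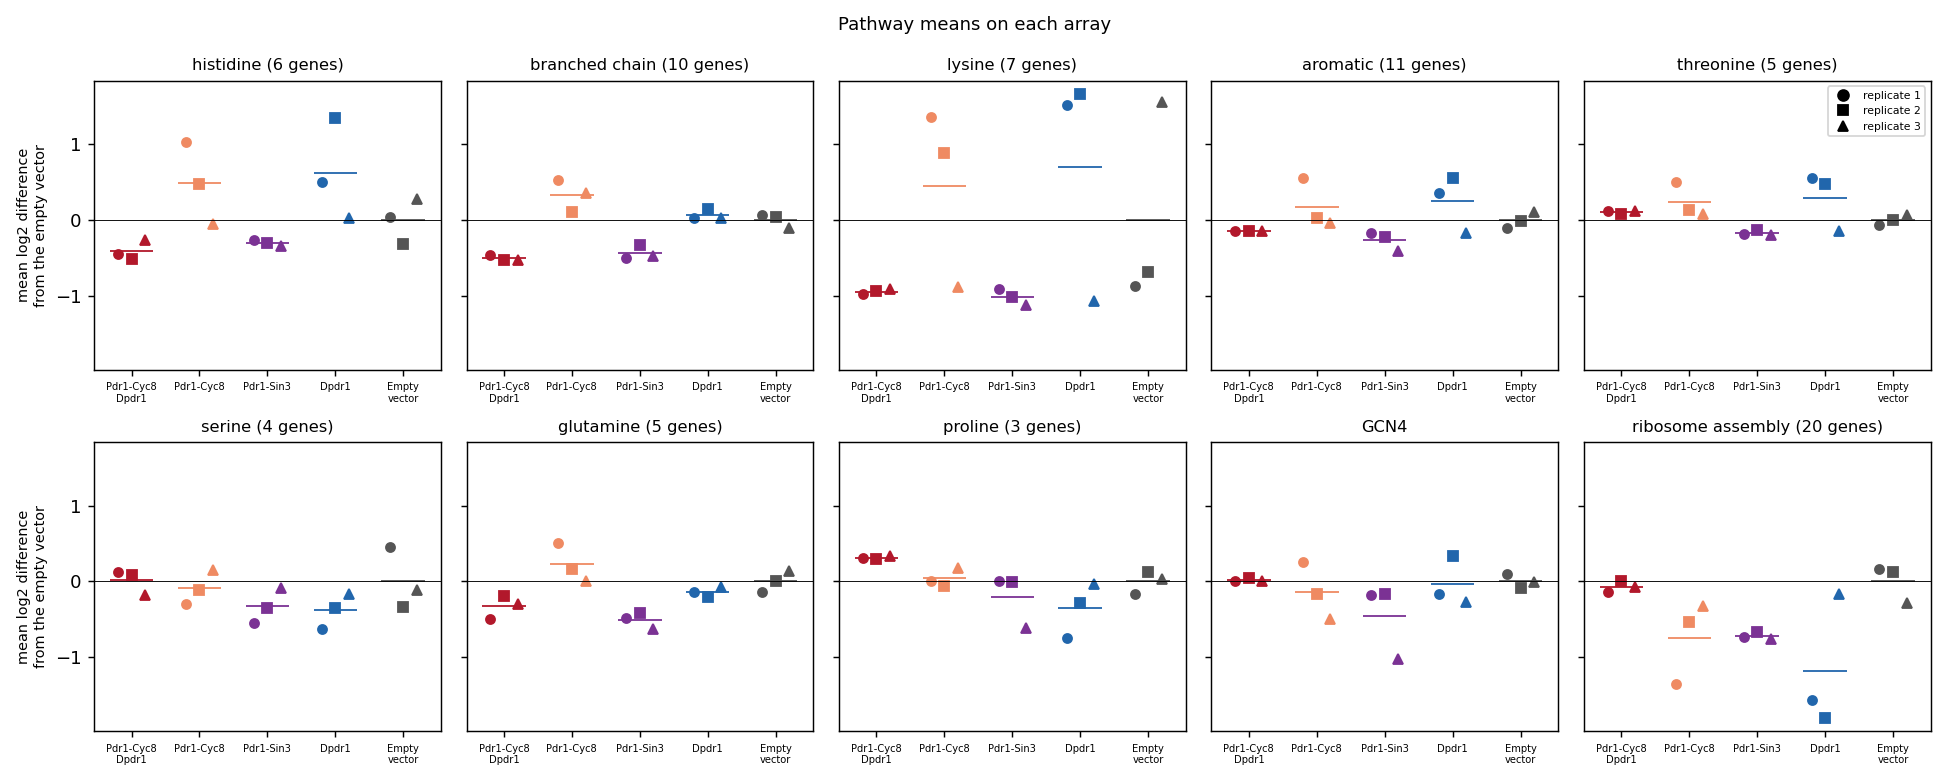
Mean log2 difference from the Empty vector mean (vertical axis) on each array for the 8 pathways, GCN4 and 20 ribosome assembly genes, by group along the horizontal axis; symbols mark replicate number and lines the mean of 3 arrays. The lysine panel has the widest spread within groups, from -1.07 to 1.66 in Dpdr1, and the Pdr1-Cyc8 fusion Dpdr1 arrays lie close together in the lysine, aromatic, threonine and proline panels.

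Among the 3 cultures of a group, GCN4 was closest together in Pdr1-Cyc8 fusion Dpdr1 and furthest apart in Pdr1-Sin3 fusion, where replicate 3 was low. Its levels were 12.61, 12.66 and 12.62 in Pdr1-Cyc8 fusion Dpdr1, 12.86, 12.44 and 12.11 in Pdr1-Cyc8 fusion, 12.43, 12.44 and 11.58 in Pdr1-Sin3 fusion, 12.45, 12.95 and 12.33 in Dpdr1 and 12.71, 12.52 and 12.59 with the Empty vector. The SD was 0.03 in Pdr1-Cyc8 fusion Dpdr1 and 0.49 in Pdr1-Sin3 fusion, and the range over all 15 arrays was 1.37, near the median of 1.43 for all probe sets. Pdr1-Sin3 fusion lay below the Empty vector and below Pdr1-Cyc8 fusion Dpdr1 without overlap. The GCN4 transcript was called in none of the 7 comparisons by limma, with differences from -0.46 (SE 0.261, adjusted p = 0.362) in Pdr1-Sin3 fusion against the Empty vector to 0.48 (SE 0.261, adjusted p = 0.366) in Pdr1-Cyc8 fusion Dpdr1 against Pdr1-Sin3 fusion. Between Pdr1-Cyc8 fusion Dpdr1 and Dpdr1, the comparison with the most calls among the 52 genes, GCN4 differed by 0.05 (SE 0.261, adjusted p = 0.92).

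**Figure D3:**
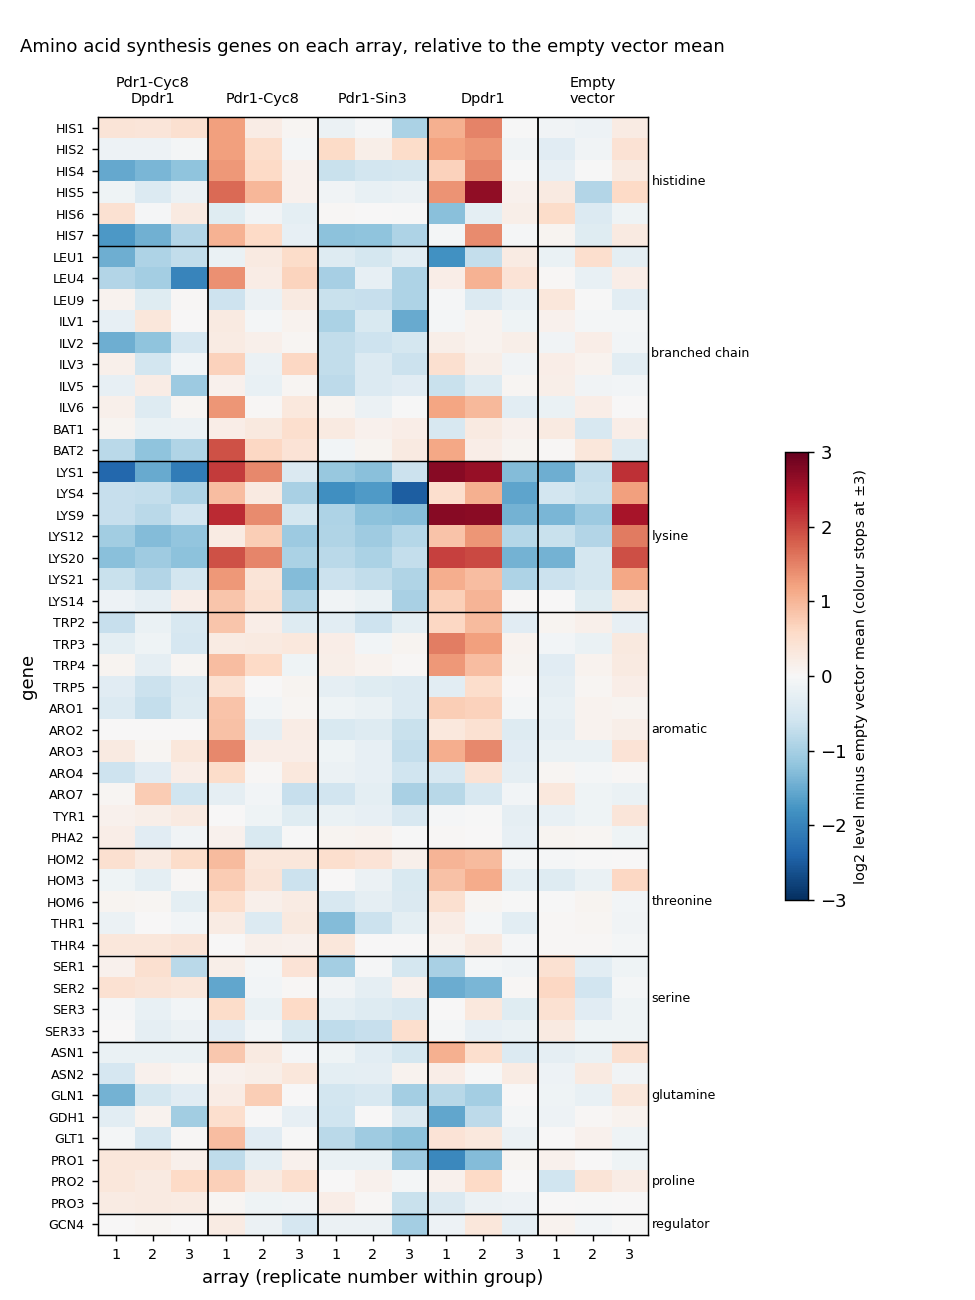
Log2 level of each of the 52 genes (rows, by pathway) on each of the 15 arrays (columns, by group and replicate number), relative to the mean of the 3 Empty vector arrays; red is higher and blue is lower, and the colour stops at 3 in either direction. The block of lysine genes is red on 5 arrays and mostly blue on the other 10, and HIS4, HIS7, LEU4, ILV2 and BAT2 are blue on all 3 arrays of Pdr1-Cyc8 fusion Dpdr1.

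What the Pdr1-Cyc8 fusion does in cells that lack PDR1 was asked by comparing Pdr1-Cyc8 fusion Dpdr1 with Dpdr1. In all, 9 genes fell, 3 of histidine, 3 of branched chain, 1 of lysine and 2 of aromatic amino acid synthesis, and 1 serine and 1 proline gene rose. That is 17.3% of the 52 genes lower and 3.85% higher, where 8.70% of all probe sets were called lower and 10.3% higher in this comparison (19.0% in either direction). The median over the 52 genes was -0.32, against 0.01 over all probe sets. Without Dpdr1 1 and 2 and Pdr1-Cyc8 fusion 1, the arrays lowest in ribosome assembly genes, the median was 0.03, with 1 Dpdr1 array left. The arrays left out were also high in lysine and histidine genes within their groups. Leaving them out therefore cannot tell the ribosome assembly level from the level of the 52 genes themselves. On all arrays, values lay below 0 for 38 of the 52. Without overlap between the groups, 12 were lower and 5 higher, where the backgrounds were 14.1% and 17.4%. These groups belong to different spike-in sets, and ribosome assembly genes moved with them: 8 of 20 rose and none fell, with a list median of 1.07. Their part in the result was not tested.

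Histidine synthesis had the most genes called for its size. HIS4 (YCL030C), which encodes a protein with 3 of the pathway's activities, read 11.21, 11.37 and 11.54 in Pdr1-Cyc8 fusion Dpdr1, against 13.42, 14.17 and 12.73 in Dpdr1. The groups did not overlap, and HIS4 fell by 2.07 (SE 0.329, adjusted p = 0.000995 by limma), a 4.19-fold difference. HIS7 (YBR248C) encodes the glutamine-using enzyme that forms the imidazole ring. Its levels were 8.60, 8.89 and 9.46 in Pdr1-Cyc8 fusion Dpdr1 and 10.27, 11.75 and 10.30 in Dpdr1, a difference of -1.79 (SE 0.391, limma adjusted p = 0.00641). HIS5 (YIL116W), the aminotransferase of the pathway, read 8.44, 8.16 and 8.39 in Pdr1-Cyc8 fusion Dpdr1 and 9.91, 11.22 and 8.70 in Dpdr1. It fell by 1.61 (SE 0.521, adjusted p = 0.0419), and the lowest Dpdr1 array stood only just above the highest array with the fusion. HIS1, HIS2 and HIS6 were not called, at -0.43, -0.93 and 0.69.

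Of the 10 branched chain genes, 3 fell. LEU4 (YNL104C), the main alpha-isopropylmalate synthase and the entry to leucine, read 11.42, 11.28 and 10.33 in Pdr1-Cyc8 fusion Dpdr1 and 12.52, 13.35 and 12.71 in Dpdr1, a difference of -1.85 (SE 0.346, limma adjusted p = 0.00256). Its paralogue LEU9 was not called, at 0.14 (adjusted p = 0.74). ILV2 (YMR108W) encodes the catalytic subunit of acetolactate synthase, and it is the called gene with the tightest Dpdr1 values: it read 9.08, 9.33 and 10.03 in Pdr1-Cyc8 fusion Dpdr1 and 10.71, 10.64 and 10.72 in Dpdr1. Its difference was -1.21 (SE 0.224, adjusted p = 0.00248), while ILV6, which encodes the regulatory subunit of that enzyme, had -0.67 (adjusted p = 0.22). BAT2 (YJR148W), the cytosolic branched chain aminotransferase, read 8.42, 8.01 and 8.32 in Pdr1-Cyc8 fusion Dpdr1 and 10.37, 9.42 and 9.31 in Dpdr1. It fell by 1.44 (SE 0.36, adjusted p = 0.0131), and its mitochondrial counterpart BAT1 had -0.07 (adjusted p = 0.883). ILV5, the reductoisomerase that follows acetolactate synthase, read 13.10, 13.57 and 12.27 in Pdr1-Cyc8 fusion Dpdr1 and 12.69, 12.97 and 13.41 in Dpdr1, with overlap and no call.

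Among lysine genes LYS1 (YIR034C) was called, at 8.11, 8.94 and 8.37 in Pdr1-Cyc8 fusion Dpdr1 against 13.18, 13.08 and 9.17 in Dpdr1. Its difference of -3.33 (SE 0.99, limma adjusted p = 0.0298) had the largest size among the 52 genes and also one of the largest errors. The third Dpdr1 culture lies nearer to the cultures with the fusion than to the other Dpdr1 cultures. The other 6 lysine genes lay at -2.05 to -0.66 without a call, and 2 of the 7 had no overlap.

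In aromatic synthesis TRP3 (YKL211C), a subunit of anthranilate synthase, read 8.75, 8.93 and 8.55 in Pdr1-Cyc8 fusion Dpdr1 and 10.59, 10.28 and 9.15 in Dpdr1. It fell by 1.26 (SE 0.293, limma adjusted p = 0.00904). ARO1 (YDR127W), whose product carries out the middle steps to chorismate, read 11.75, 11.45 and 11.77 in Pdr1-Cyc8 fusion Dpdr1 and 12.89, 12.86 and 12.09 in Dpdr1, a difference of -0.96 (SE 0.27, adjusted p = 0.0237). ARO2, chorismate synthase, the enzyme that follows, read 12.55, 12.53 and 12.55 in Pdr1-Cyc8 fusion Dpdr1 and 12.84, 12.98 and 12.14 in Dpdr1, with a difference of -0.11 (adjusted p = 0.833). TRP2, the partner subunit of TRP3, had -0.87 (adjusted p = 0.0802). No other aromatic gene was called, and ARO7 and TYR1 had positive values, 0.54 and 0.30.

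The 2 genes that rose stand at the end of the serine pathway and the start of the proline pathway. SER2 (YGR208W), phosphoserine phosphatase, read 9.46, 9.39 and 9.36 in Pdr1-Cyc8 fusion Dpdr1 and 7.51, 7.63 and 9.04 in Dpdr1, a difference of 1.34 (SE 0.436, limma adjusted p = 0.0431). PRO1 (YDR300C), the gamma-glutamyl kinase, read 9.71, 9.73 and 9.54 in Pdr1-Cyc8 fusion Dpdr1 and 7.45, 8.09 and 9.44 in Dpdr1, a difference of 1.33 (SE 0.398, adjusted p = 0.0304). In both, Dpdr1 replicates 1 and 2 were low and replicate 3 stood close to the cultures with the fusion. PRO3, the last enzyme of proline synthesis, read 11.98, 12.00 and 11.99 in Pdr1-Cyc8 fusion Dpdr1 and 11.30, 11.56 and 11.59 in Dpdr1, without overlap and without a call. SER1, the serine pathway aminotransferase, read 10.93, 11.28 and 9.99 in Pdr1-Cyc8 fusion Dpdr1 and 9.84, 10.74 and 10.70 in Dpdr1, with overlap. None of the 5 threonine and 5 glutamine genes was called. HOM6, homoserine dehydrogenase, read 12.62, 12.59 and 12.24 in Pdr1-Cyc8 fusion Dpdr1 and 13.03, 12.59 and 12.53 in Dpdr1. GLN1, glutamine synthetase, read 10.81, 11.70 and 11.88 in Pdr1-Cyc8 fusion Dpdr1 and 11.40, 11.21 and 12.24 in Dpdr1, and both genes overlapped.

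**Figure D4:**
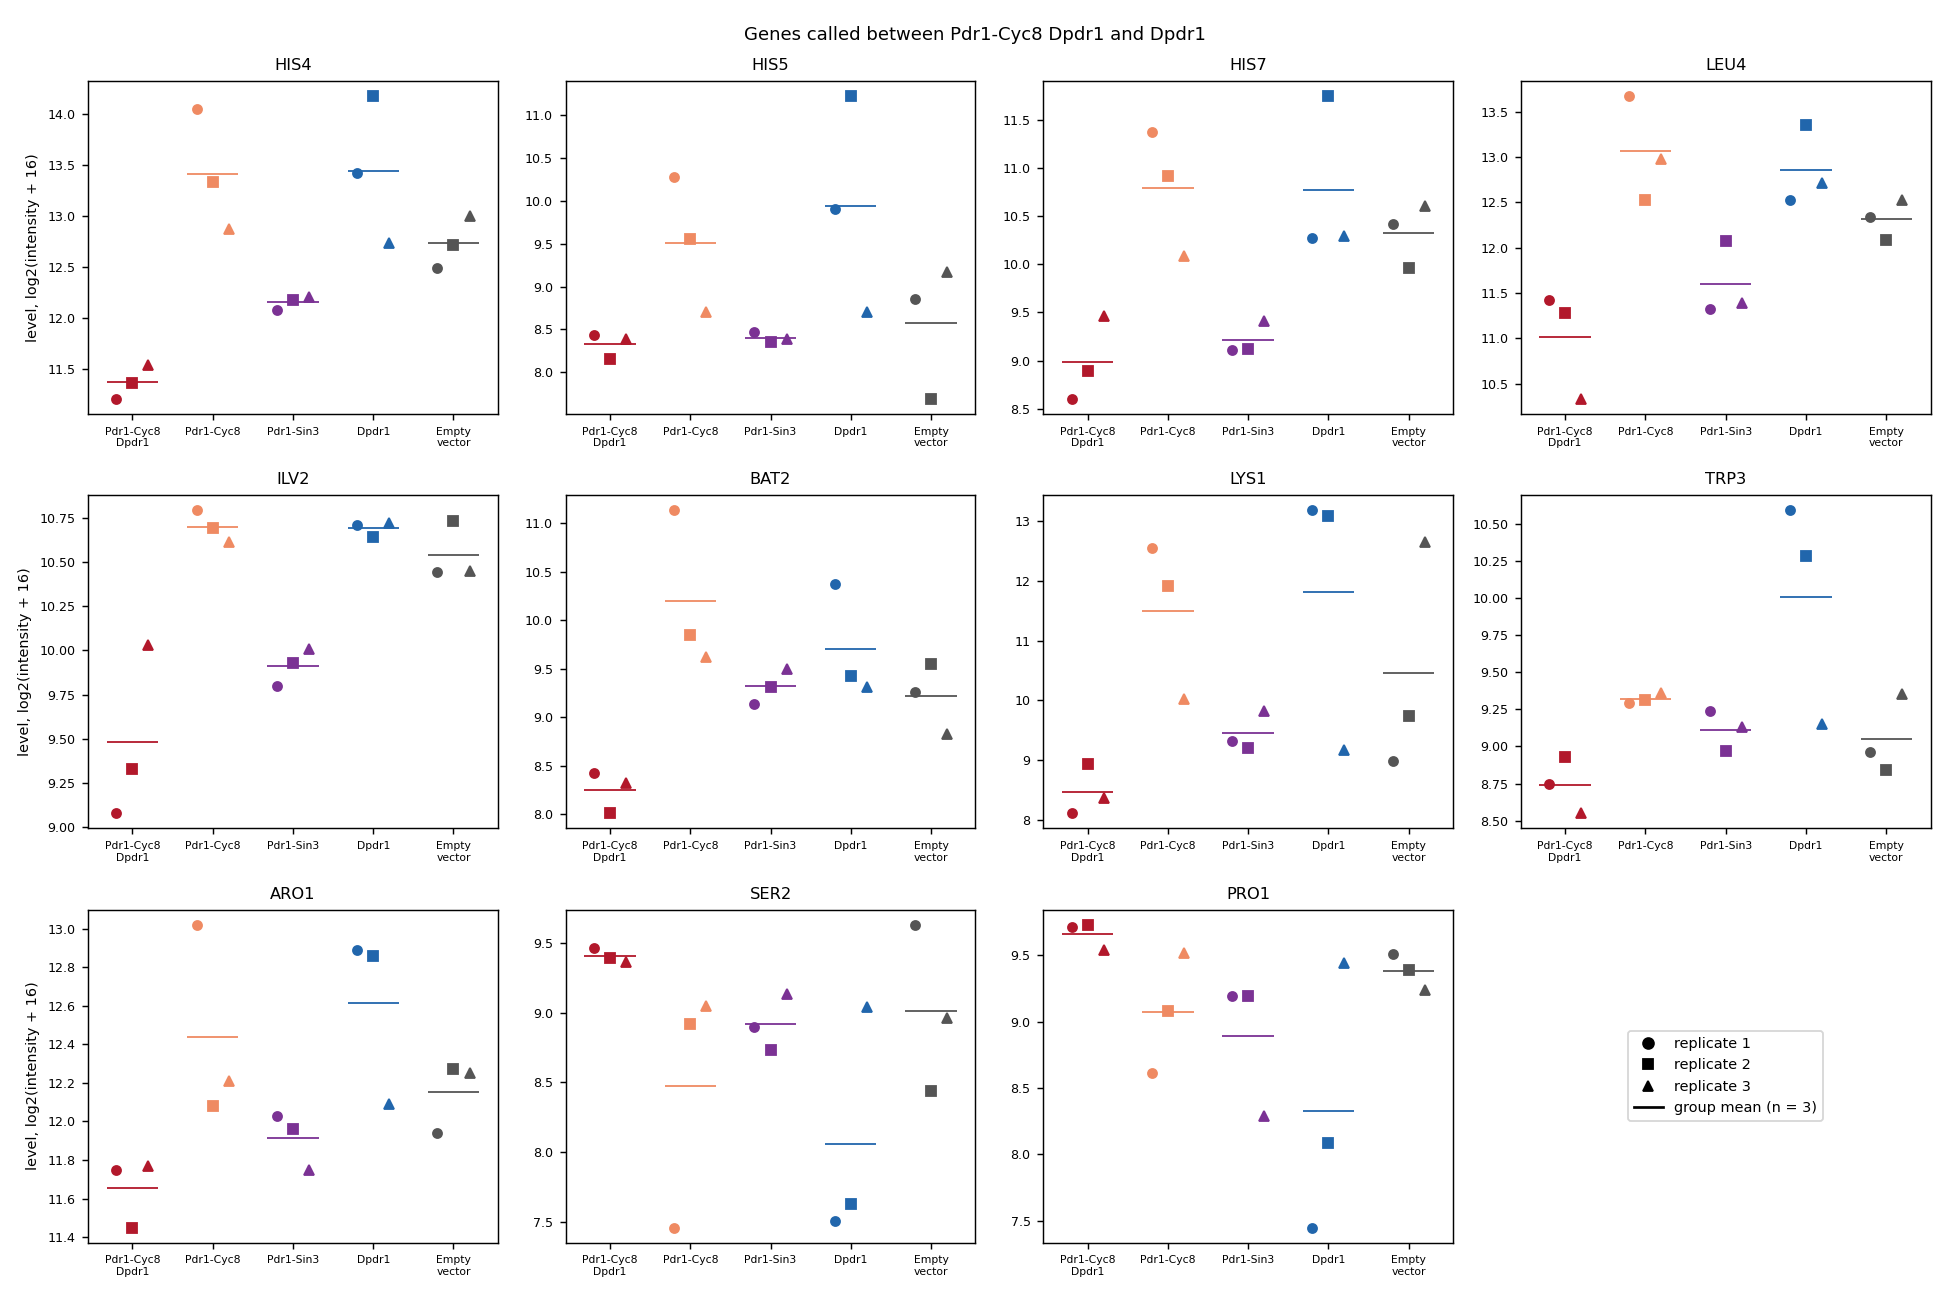
Level (log2(intensity + 16), vertical axis) on each of the 15 arrays of the 11 genes called between Pdr1-Cyc8 fusion Dpdr1 and Dpdr1, by group along the horizontal axis; symbols mark replicate number and lines the mean of 3 arrays. In Dpdr1, ILV2 has 3 arrays within 10.64 to 10.72, HIS4 and HIS5 have 3 arrays spread out, and each other gene has 1 array apart from the other 2.

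The number of these calls moved when single cultures of either group were left out. The count of 11 became 5 without Dpdr1 replicate 1, 6 without replicate 2 and 24 without replicate 3, and 6, 6 and 7 without replicates 1, 2 and 3 of Pdr1-Cyc8 fusion Dpdr1. The calls over all 9275 probe sets moved too, with 1760 on all arrays, 1160 without Dpdr1 replicate 1, 998 without replicate 2 and 2224 without replicate 3. HIS4, HIS7, LEU4, ILV2 and TRP3 kept their calls whichever single array was left out. BAT2 lost its call without Dpdr1 replicate 1, and ARO1 without replicate 1 or 2 of either group. LYS1 and PRO1 lost theirs without Dpdr1 replicate 1 or 2 or any array of Pdr1-Cyc8 fusion Dpdr1. HIS5 and SER2 did so as well and also without any array of Pdr1-Sin3 fusion, HIS5 without Pdr1-Cyc8 fusion replicate 2 and SER2 without Empty vector replicate 3. With the 3 arrays of lowest ribosome assembly level left out (Dpdr1 1 and 2 and Pdr1-Cyc8 fusion 1), which leaves a lone Dpdr1 array whose variance is taken from the other groups, 1 gene was called, HIS4 at -1.35 (limma adjusted p = 0.0312). LEU4 was then at -1.70, HIS7 at -1.32, ILV2 at -1.24 and BAT2 at -1.05. Smaller in size were LYS1 (-0.69), ARO1 (-0.43), TRP3 (-0.41), HIS5 (-0.37), SER2 (0.36) and PRO1 (0.22).

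Other gene groups were set beside the 52 in the same comparison, all of them with lists chosen when earlier results of these data were known. Their counts stand against 8.70% of all probe sets lower and 10.3% higher, and several lists are near those shares. All 7 measured arginine genes fell, among them ARG3 (-3.92) and ARG1 (-3.88), and their values were larger in size than those of most of the 52 genes. Of 16 further genes of the same pathways, 3 fell, ARO9 (-3.33), an aromatic aminotransferase used also in breakdown, LYS2 (-2.63) and AAT1 (-1.51), the mitochondrial aspartate aminotransferase, and SHM1 rose (0.72). Of 14 genes that control Gcn4, PCL5 (-1.71), a cyclin that directs Gcn4 degradation, and the kinase gene GCN2 (-0.73) fell, and SUI3 (1.23), GCD11 (1.10) and GCN20 (0.74) rose. BAP3 (-1.32), CAN1 (-0.85) and BAP2 (-0.83) fell among 12 amino acid permease genes. Of 7 breakdown genes ARO10 fell (-3.41) and CAR2 (1.83) and CAR1 (1.20) rose. ADE4 (1.23), ADE17 (1.05) and ADE8 (0.96) rose among 9 purine genes, and of 13 pathway regulators PHO2 rose (1.30) and RTG3 fell (-1.48). Of 15 environmental stress genes 1 fell, GSY2 (-0.97).

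Whether the effect of the Pdr1-Cyc8 fusion in the deletion differs from its effect in yeast not labelled as deleted was tested by the difference between the 2 effects. The test called 8 genes, all with a more negative effect in the deletion: HIS4 (-2.74), LEU4 (-2.60), HIS5 (-2.56), BAT2 (-2.43), HIS7 (-2.25), TRP3 (-1.53), ILV2 (-1.36) and ARO1 (-1.24), with limma adjusted p from 0.00416 for HIS4 to 0.0488 for ARO1. This is 15.4% of the 52 genes, where 5.30% of all probe sets were called lower and 6.20% higher (11.5% in either direction). In Pdr1-Cyc8 fusion against the Empty vector each of the 8 had a positive value, from 0.16 for ILV2 to 0.99 for BAT2, and none was called there. HIS4 read 14.04, 13.33 and 12.87 in Pdr1-Cyc8 fusion and 12.49, 12.72 and 13.00 with the Empty vector, and BAT2 read 11.13, 9.85 and 9.62 in Pdr1-Cyc8 fusion and 9.26, 9.55 and 8.83 with the Empty vector. HIS4 overlaps between these groups and BAT2 does not. LYS1 had the largest size of this difference, -4.36, without a call (SE 1.4, adjusted p = 0.0559).

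**Figure D5:**
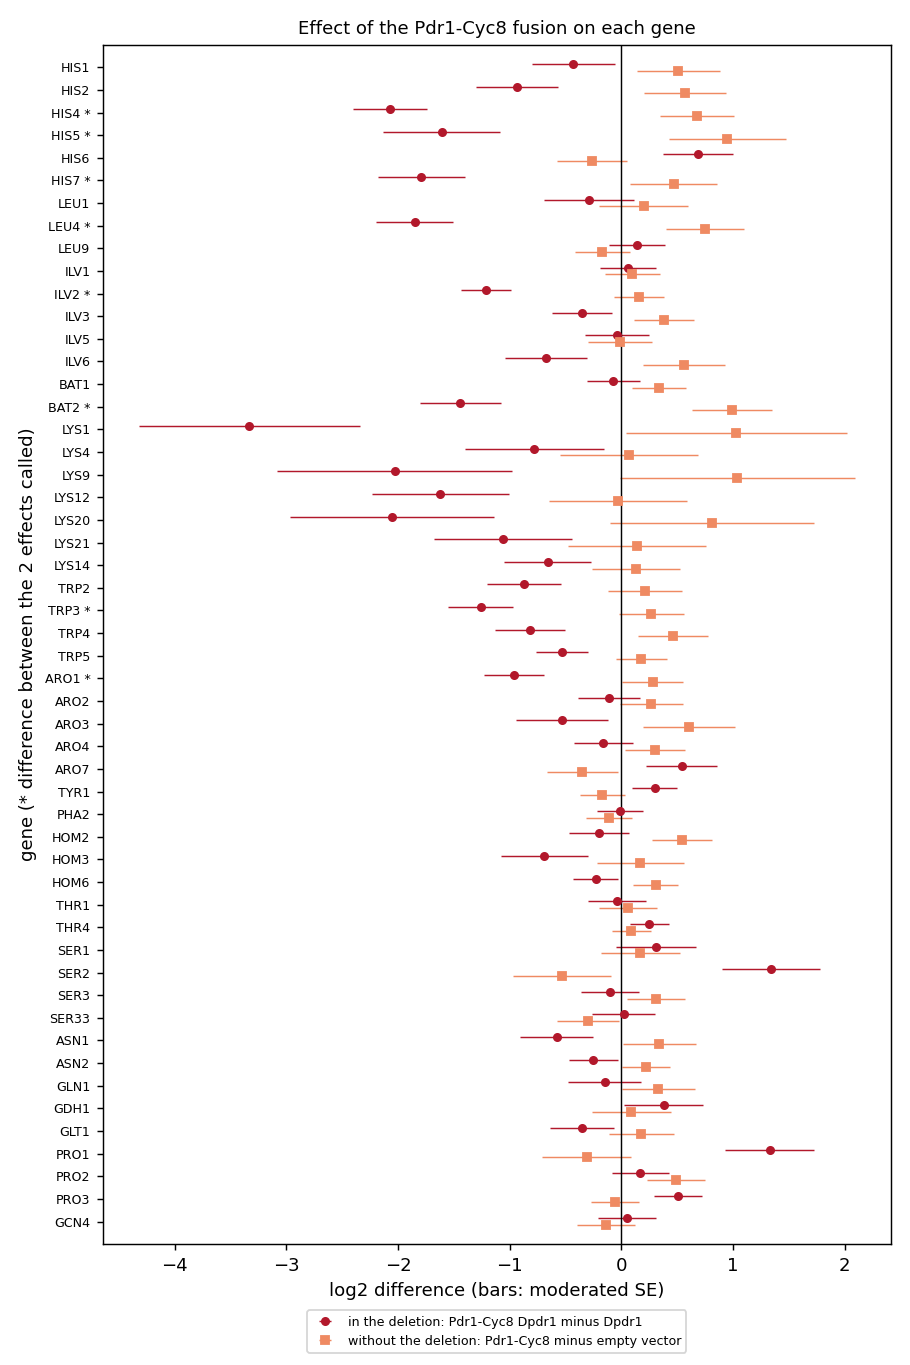
Log2 difference with the Pdr1-Cyc8 fusion for each of the 52 genes (rows). Circles show it in the deletion (Pdr1-Cyc8 fusion Dpdr1 minus Dpdr1) and squares without the deletion (Pdr1-Cyc8 fusion minus Empty vector). The groups behind the circles come from different spike-in sets. Bars are the moderated SE and an asterisk marks the 8 genes whose effects differ by the test. Circles of the lysine, most histidine and several branched chain and aromatic genes lie left of 0 and their squares mostly right of it, and lysine genes have the longest bars.

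Of the 4 groups in this test only Pdr1-Cyc8 fusion Dpdr1 comes from the second spike-in set, and ribosome assembly genes moved with it (11 of 20 called higher, median 1.88), a part that was not tested. The count of 8 became 0 with the same 3 arrays of lowest ribosome assembly level left out, where HIS4 had -1.72 (limma adjusted p = 0.0674). It was 22 without Dpdr1 replicate 3, where 1805 of 9275 probe sets were called and 1067 on all arrays, 4 without Pdr1-Cyc8 fusion replicate 1 or Pdr1-Cyc8 fusion Dpdr1 replicate 1, and 5 without Dpdr1 replicate 1 or 2, Empty vector replicate 1 or 2, or Pdr1-Cyc8 fusion Dpdr1 replicate 3. HIS4, LEU4, ILV2 and BAT2 kept their calls whichever single array was left out. HIS7 lost its call without Pdr1-Cyc8 fusion replicate 1 or Pdr1-Cyc8 fusion Dpdr1 replicate 1. TRP3 lost its call without Empty vector 1 or 2, Pdr1-Cyc8 fusion 1, Dpdr1 1 or 2, or Pdr1-Cyc8 fusion Dpdr1 1 or 3. HIS5 did so without Empty vector 1 or 2, Pdr1-Cyc8 fusion 1 or 2, Dpdr1 1 or 2, or any array of Pdr1-Cyc8 fusion Dpdr1. ARO1 did so without any array of Empty vector, Pdr1-Sin3 fusion or Pdr1-Cyc8 fusion Dpdr1, Dpdr1 1 or 2, or Pdr1-Cyc8 fusion 1.

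Against the Empty vector, Pdr1-Cyc8 fusion Dpdr1 had 4 genes called, all lower: HIS4 at -1.36 (SE 0.329, limma adjusted p = 0.0188), HIS7 at -1.34 (SE 0.391, adjusted p = 0.0444), LEU4 at -1.30 (SE 0.346, adjusted p = 0.0298) and ILV2 at -1.06 (SE 0.224, adjusted p = 0.00897). They are 7.69% of the 52 genes, where 4.00% of all probe sets were called lower and 4.47% higher (8.47% in either direction). HIS4 read 11.21, 11.37 and 11.54 in Pdr1-Cyc8 fusion Dpdr1, against 12.49, 12.72 and 13.00 with the Empty vector, and ILV2 read 9.08, 9.33 and 10.03 in Pdr1-Cyc8 fusion Dpdr1 and 10.44, 10.73 and 10.45 with the Empty vector. Neither gene overlapped. Without overlap, 12 genes were lower and 5 higher, and the backgrounds were 14.5% and 16.7%. The median over the 52 genes was -0.13, and all 7 lysine genes lay below 0 without a call, LYS1 at -1.99 (SE 0.99, adjusted p = 0.241). Ribosome assembly genes, with a list median of -0.11, had none called here, while 4 of 15 environmental stress genes rose, among them TSL1 (1.40) and TPS1 (1.15). The cultures of Pdr1-Cyc8 fusion Dpdr1 are the same as in the comparison with Dpdr1, and the 2 groups come from different spike-in sets.

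The call of ILV2 against the Empty vector held under every alternative tried. The count of 4 became 2 without Empty vector replicate 1, 1 without Empty vector replicate 2 or 3 and 2 without Pdr1-Cyc8 fusion Dpdr1 replicate 1 or 2. HIS4 dropped out when replicate 2 or 3 of the Empty vector, or replicate 1 or 2 of Pdr1-Cyc8 fusion Dpdr1, was left out, and LEU4 without any Empty vector array or Pdr1-Cyc8 fusion Dpdr1 replicate 3. HIS7 lost its call without any array of Empty vector or Pdr1-Sin3 fusion, Pdr1-Cyc8 fusion replicate 2, or Pdr1-Cyc8 fusion Dpdr1 replicate 1 or 2. In the other lists PHO2 rose (1.87), CAR1 rose (1.08), and CHA4 (-0.91), HIP1 (-1.01), BAP3 (-1.12) and LEU2 (-0.66) fell. No measured arginine gene was called, although all 7 lay below 0 without overlap.

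With Pdr1-Sin3 fusion against the Empty vector, 1 of the 52 genes was called. ILV1 (YER086W), the threonine deaminase that opens isoleucine synthesis, read 10.09, 10.57 and 9.51 in Pdr1-Sin3 fusion and 11.17, 10.97 and 10.97 with the Empty vector, a difference of -0.98 (SE 0.248, limma adjusted p = 0.039). That is 1.92% of the genes, where 1.06% of all probe sets were called lower and 2.65% higher (3.71% in either direction). Many of the others lay slightly lower: 42 of 52 had values below 0, with a median of -0.39 against -0.01 over all probe sets, and 21 lay below the Empty vector without overlap, 1 above it, against backgrounds of 15.1% and 14.7%. GLT1, glutamate synthase, read 9.79, 9.54 and 9.36 in Pdr1-Sin3 fusion and 10.61, 10.73 and 10.47 with the Empty vector, at -1.04 (adjusted p = 0.059). LYS4 read 8.17, 8.31 and 7.55 in Pdr1-Sin3 fusion and 9.48, 9.35 and 11.24 with the Empty vector, at -2.02 (adjusted p = 0.0855).

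By pathway, non-overlapping lower values in Pdr1-Sin3 fusion were seen for 7 of 10 branched chain, 5 of 11 aromatic, 2 of 6 histidine, 2 of 5 threonine, 2 of 5 glutamine, 1 of 3 proline, 1 of 7 lysine and 0 of 4 serine genes, and for GCN4. Over all probe sets the share was 15.1%, which the lysine count does not exceed. The pathways hold few genes, and no test was made between them. The 2 groups come from different spike-in sets, 9 of 15 environmental stress genes were called higher (median 1.55) and NOP7 alone was called lower of 20 ribosome assembly genes (median -0.58), and their part was not tested. CHA4, an activator of serine and threonine breakdown, fell (-1.10), and no arginine, purine, permease or breakdown gene was called. ILV1 lost its call without any Empty vector array, Pdr1-Cyc8 fusion replicate 2, or Pdr1-Sin3 fusion replicate 1 or 3. A fit of only the groups compared called GLT1 and HIS7, and not ILV1. The count became 2 without Pdr1-Cyc8 fusion replicate 1 and 3 without Dpdr1 replicate 3, and it was 0 without any Empty vector array or Pdr1-Sin3 fusion replicate 1 or 3.

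The Pdr1-Cyc8 fusion Dpdr1 and Pdr1-Sin3 fusion groups share a spike-in set. ILV1 was called between them, at 10.78, 11.36 and 11.05 in Pdr1-Cyc8 fusion Dpdr1 and 10.09, 10.57 and 9.51 in Pdr1-Sin3 fusion, a difference of 1.01 (SE 0.248, limma adjusted p = 0.0448). That 1 gene is 1.92% of the 52, where 0.830% of all probe sets were called higher and 1.70% lower (2.53% in either direction). HIS4 had -0.79 (adjusted p = 0.227) and BAT2 -1.06 (adjusted p = 0.127), both without overlap. Without overlap, 17 genes were higher and 8 lower, with backgrounds of 13.1% and 13.7%, and the median was 0.11. All 20 ribosome assembly genes lay above 0 (15 without overlap, median 0.62) and all 15 environmental stress genes below 0 (4 called lower, median -0.96), and their part was not tested. The call of ILV1 was lost without any array of Empty vector or Pdr1-Cyc8 fusion Dpdr1, Pdr1-Cyc8 fusion replicate 2, Dpdr1 replicate 2, or Pdr1-Sin3 fusion replicate 1 or 3, and the count was then 0. With each array centred on its median, ILV1 was not called and HIS4 was, as lower. A fit of only the groups compared called BAT2 and LYS4, and not ILV1.

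Within the first spike-in set no gene was called. For Pdr1-Cyc8 fusion against the Empty vector, limma called 0 of 52 genes, where 0.712% of all probe sets were called, and 2 had an unadjusted p under 0.05, BAT2 at 0.99 (adjusted p = 0.35) and LEU4 at 0.75 (adjusted p = 0.503), while 909 of 9275 probe sets had one. Values were above 0 for 40 of the 52, with a median of 0.21, and 4 lay above the Empty vector without overlap (background 7.85%). For Dpdr1 against the Empty vector, limma also called 0 of 52, where 0.0323% of all probe sets were called (0.0216% higher and 0.0108% lower), and 10 had an unadjusted p under 0.05, as had 1274 of 9275 probe sets. Those with the largest values were HIS5 at 1.38 (adjusted p = 0.292), PRO1 at -1.05 (adjusted p = 0.292), TRP3 at 0.96 (adjusted p = 0.216) and SER2 at -0.95 (adjusted p = 0.353). LEU4 was higher without overlap and PRO3 lower, against backgrounds of 6.42% and 6.86%. With array weights TRP3 alone was called in that comparison.

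In the deletion the third culture stood apart from the other 2 for many of these genes. Without it 13 genes were called against the Empty vector, 9 higher and 4 lower, as were 832 of all 9275 probe sets. Without Dpdr1 replicate 1 or 2 the count stayed at 0. The third culture is singled out by these same values, and leaving it out narrows the spread. The 13 calls therefore describe the split between cultures and are not a test of the deletion. The 13 genes include 4 histidine genes (HIS1, HIS2, HIS4 and HIS5), TRP3, TRP4 and ARO3 of aromatic synthesis and ILV6 and HOM2 among the higher, and SER2, LEU1, PRO1 and GDH1 among the lower. HIS1, the first enzyme of histidine synthesis, read 13.00, 13.42 and 11.91 in Dpdr1 and 11.83, 11.78 and 12.17 with the Empty vector. GDH1, which makes glutamate from ammonia, read 10.41, 11.17 and 11.89 in Dpdr1 and 11.81, 12.00 and 12.07 with the Empty vector. Ribosome assembly genes moved with this split, at -1.57 and -1.80 on Dpdr1 replicates 1 and 2 and -0.17 on replicate 3, and their part in it was not tested. No list gene other than PDR1 was called in Dpdr1 against the Empty vector. In Pdr1-Cyc8 fusion against the Empty vector CYC8 and 3 of 15 environmental stress genes were called, and none of the arginine, purine, permease, breakdown, ribosome assembly, Gcn4 control or pathway regulator genes was.

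Taken over all 15 arrays, the range of a gene was 0.46 to 5.06, with a median of 1.71 for the 52 genes and 1.43 for all probe sets, and 20 of the 52 spanned over 2. The median SD within a group was 0.18 in Pdr1-Cyc8 fusion Dpdr1 (0.27 over all probe sets), 0.45 in Pdr1-Cyc8 fusion (0.29), 0.19 in Pdr1-Sin3 fusion (0.24), 0.53 in Dpdr1 (0.35) and 0.27 with the Empty vector (0.25). The 52 genes were therefore more variable than the array as a whole in Pdr1-Cyc8 fusion and Dpdr1 and less so in Pdr1-Cyc8 fusion Dpdr1 and Pdr1-Sin3 fusion, a description for which no test was made.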

How the data were processed

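Total RNA (10 ug) of 15 cultures was labelled and hybridised, per the labels' protocols, and groups were assigned from sample titles. The deposited table holds linear intensity values, 1 for each probe set on each array. No source used here names the software that made them. Their trimmed mean (2% at each end) is 500.5 to 500.7 on every array, so they were scaled before being deposited. The table has no detection calls.

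Of 9335 probe sets, 60 controls were left out. Probe sets were named from the platform annotation, with symbols updated through the reference gene table: 6504 have 1 gene, 328 several and 2443 none. The deposited intensities were quantile normalised, because their array medians differ by a factor of 1.219, and converted to log2(value + 16). Group means were fitted with limma 3.58.1 in R 4.3.3 (residual degrees of freedom 10, prior 5.35) with Benjamini-Hochberg adjustment, per comparison, over all 9275 probe sets. The fit was tested on simulated data, with 200 probe sets changed in Pdr1-Cyc8 fusion Dpdr1 against Dpdr1. It recovered 31.0% of 2-fold and 96.0% of 4-fold changes, so a gene that was not called may still differ. The simulated noise was independent between probe sets, with the same SD in every group. In the data the spread differs between groups and genes of a pathway move together. These shares therefore do not carry over to genes with large errors, such as LYS1.

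Values in every array are given for GCN4, for genes called in a comparison and for the brightest gene of each pathway, and other lists as counts with at most 4 called genes named per list and comparison. The exception is the list of genes that control Gcn4 in Pdr1-Cyc8 fusion Dpdr1 against Dpdr1, where every called gene was named. GLT1, LYS4, LYS9, LYS14, HIS1, GDH1, LYS2, the shared LYS20 and LYS21 probe set and the arginine means by array were shown in addition, and chosen after their values were seen. The genes and lists were chosen with earlier results of these data known. Genes of the other lists without a single-gene probe set were not used here. The alternatives tried were 2 other scalings, 2 pseudocounts, a filter on dim probe sets, an intensity trend, array weights, smaller fits, a replicate block, the mean of a gene's probe sets, and leaving out arrays. Whether equal replicate numbers pair cultures was checked: of 30 same-numbered pairs of arrays, 3 had a correlation of residuals over 0.1 (lowest -0.347, highest 0.334), and the numbers were not used as pairs in the main fit. Between Pdr1-Cyc8 fusion and Dpdr1 the correlations were 0.233, -0.027 and 0.334 for replicates 1, 2 and 3. Arrays of different number were not compared, so the check does not settle whether those groups were paired. No promoter sequence was searched. Figures were drawn with matplotlib 3.10.9.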

Additional observations from a re-analysis of the deposited data

Results flagged for a closer look

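For 8 genes the effect of the Pdr1-Cyc8 fusion in the deletion differed from its effect without the deletion by limma's test of that difference, which uses all 4 groups. The difference was -2.74 for HIS4, -2.56 for HIS5 and -2.25 for HIS7 of histidine synthesis. It was -2.60 for LEU4, -1.36 for ILV2 and -2.43 for BAT2 of branched chain synthesis, and -1.53 for TRP3 and -1.24 for ARO1 of aromatic synthesis. None of the 8 was called with the 3 arrays of lowest ribosome assembly level left out, where the values ran from -2.14 for LEU4 to -0.42 for ARO1.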

How the results depend on the processing

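With 3 arrays a group, their number limits the precision, and the table has no detection calls to set low levels against background. Of 25 calls, 2 held under every alternative tried, HIS4 between Pdr1-Cyc8 fusion Dpdr1 and Dpdr1 and ILV2 between Pdr1-Cyc8 fusion Dpdr1 and Empty vector; no called value changed sign. Over 9568 alternative values of single genes, 144 lost a call and 96 gained one, and 309 values that were called in neither setting changed sign and were counted as unchanged, a choice made after the data were seen. Left-out single arrays gave counts of 5 to 24 for Pdr1-Cyc8 fusion Dpdr1 against Dpdr1, 1 to 5 for it against Empty vector, 0 to 1 for it against Pdr1-Sin3 fusion, 0 to 3 for Pdr1-Sin3 fusion against Empty vector, 0 to 13 for Dpdr1 against Empty vector, 0 to 0 for Pdr1-Cyc8 fusion against Empty vector and 4 to 22 for the difference between the fusion's effects. With the 3 arrays of lowest ribosome assembly level left out, Pdr1-Cyc8 fusion Dpdr1 against Dpdr1 had 1 call, the difference between effects 0, Pdr1-Sin3 fusion against Empty vector 4 and Pdr1-Cyc8 fusion Dpdr1 against Pdr1-Sin3 fusion 4. With a pseudocount of 1 the counts were 7 for Pdr1-Cyc8 fusion Dpdr1 against Dpdr1, 2 for it against Empty vector, 0 for it against Pdr1-Sin3 fusion and 0 for Pdr1-Sin3 fusion against Empty vector. With array weights they were 15 for the difference between effects, 4 for Pdr1-Sin3 fusion and 1 for Dpdr1 against Empty vector. Fits of only the groups compared gave 5 for Pdr1-Cyc8 fusion Dpdr1 against Dpdr1, 5 for the difference between effects, 2 for Pdr1-Sin3 fusion against Empty vector and 2 for Pdr1-Cyc8 fusion Dpdr1 against Pdr1-Sin3 fusion. In the last 2 of these fits ILV1 was not called. The genes called were GLT1 and HIS7 in the former and BAT2 and LYS4 in the latter. Pdr1-Sin3 fusion against Empty vector had 2 with the values as deposited, with median centring, with the lowest 25% of probe sets left out, with a pseudocount of 64 and with the mean of a gene's probe sets, and Pdr1-Cyc8 fusion Dpdr1 against Pdr1-Sin3 fusion had 0 with the values as deposited. The cause of these changes was not tested.

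With the replicate number as a block the counts were 10 for Pdr1-Cyc8 fusion Dpdr1 against Dpdr1, 3 for it against Empty vector, 0 for it against Pdr1-Sin3 fusion, 7 for the difference between effects, 1 for Pdr1-Sin3 fusion and 0 for Pdr1-Cyc8 fusion and Dpdr1 against Empty vector. With the values as deposited the median of all probe sets moved to 0.14 in Pdr1-Cyc8 fusion Dpdr1 against Empty vector, where it was 0.01 after quantile normalisation, and the share of all calls that were lower to 33.0%, where it was 47.2%. That share became 55.0% in Pdr1-Cyc8 fusion Dpdr1 against Pdr1-Sin3 fusion, where it was 67.2%.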
